A study of Mus musculus with 12 samples.

Results

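Epithelial junction genes were examined in RNA of mouse colon: 33 genes for tight junction, adherens junction and desmosome proteins, taken by gene name from the 54532 genes of the deposited table. They comprised 11 claudins, 9 other tight junction genes, 5 adherens genes and 8 desmosome and plakin genes. All but Cldn18 passed the filter on low values, so 32 of the 24102 genes tested were junction genes. The 12 libraries, 3 per group, came from the colon of mice on a C57BL/6N background. All mice were homozygous for floxed Tmem173, which encodes STING, and had received 5 tamoxifen injections. Tmem173fl/fl mice had no Cre, and Tmem173iΔmye mice also carried a tamoxifen-inducible Cre (CreERT2) driven by Lyz2 and meant for myeloid cells. In each genotype, 3 libraries came from mice on water and 3 from mice, called colitic, given the epithelium-injuring polymer dextran sulfate sodium (DSS) for 7 days and then water for 1 day, at 6 to 8 weeks of age. RNA was taken from colon tissue and not from sorted cells, so a lower level can reflect fewer cells of a type or less RNA per cell, and these cannot be told apart.

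Epithelial cells are held together by 3 junctions. At the tight junction, claudins form strands in which some members seal the space between cells and others, such as Cldn2, Cldn10 and Cldn15, form channels for ions or water, while occludin and the zonula occludens scaffolds (Tjp genes) organise the strands. Below it, E-cadherin (Cdh1) and its catenins build the adherens junction, and desmosomal cadherins, plakoglobin, plakophilins and desmoplakin anchor keratin filaments. In the colon these junctions form the barrier between gut bacteria and the mucosa, which DSS disrupts.

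Library totals ran from 13823237 to 18718915 counts. Levels below are TMM-scaled FPKM, that is, counts per gene length per library total after TMM scaling, a scale on which genes and libraries can be compared. Tmem173 itself lay between 6.23 and 10.7 in untreated Tmem173fl/fl colon and 6.35 and 9.27 in untreated Tmem173iΔmye colon, and between 16.4 and 19.1 and between 10.3 and 20.8 in the colitic groups, so the genotypes overlapped under both treatments and the labels could not be checked with it. Xist was expressed without Y-linked genes, a female pattern, in replicate 3 of each untreated group and in replicate 5 of colitic Tmem173iΔmye, and the other 9 libraries had a male pattern. Pancreas enzyme genes, which mark foreign tissue, summed to between 1419 and 7899 in 5 libraries of all 4 groups and to at most 448.8 in the other 7. The labelled tissue was present in all groups, since 17 epithelial reference genes such as Vil1 and Krt8 summed to between 2409 and 7724.

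Promoters of the 250 bases before the start were taken from RefSeq (GRCm38.p6), where 21 of the 33 genes were matched with 31 promoters. Pkp3, Cldn8, Pkp2, Jam3, Dsc2, Cldn23, Marveld3, Cdh1, Evpl, Ctnna1, Ppl and Dsg2 were not matched. Of 15 motifs searched on both strands, CAGGTG, the letters read by Snail and Zeb repressors of epithelial genes, stood in 22.6% of these promoters against 17.2% of all 32851 promoters, and TGANTCA, read by AP-1, in 9.68% against 6.75%. GGGCGG, a GC box, stood in 67.7% against 32.7%. The promoters of Cldn1 and Cldn4, which rose with DSS in Tmem173fl/fl mice, and of Cldn15, F11r and Epcam, which fell, are shown 5′ to 3′ so that both directions can be read side by side, with CAGGTG, on either strand, and TGANTCA in capitals.
Cldn1 (chr16:26371840-26372089, minus strand): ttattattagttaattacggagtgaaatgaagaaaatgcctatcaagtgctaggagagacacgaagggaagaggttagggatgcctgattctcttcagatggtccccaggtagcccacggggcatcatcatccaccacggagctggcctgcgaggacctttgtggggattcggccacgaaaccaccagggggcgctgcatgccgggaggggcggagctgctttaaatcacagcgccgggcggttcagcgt
Cldn4 (chr5:134946935-134947184, minus strand): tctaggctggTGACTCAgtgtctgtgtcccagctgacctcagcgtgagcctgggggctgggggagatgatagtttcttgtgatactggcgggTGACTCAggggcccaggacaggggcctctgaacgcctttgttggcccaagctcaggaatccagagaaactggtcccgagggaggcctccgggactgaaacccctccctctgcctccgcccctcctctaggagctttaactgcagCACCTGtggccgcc
Cldn15 (chr5:136967619-136967868, plus strand): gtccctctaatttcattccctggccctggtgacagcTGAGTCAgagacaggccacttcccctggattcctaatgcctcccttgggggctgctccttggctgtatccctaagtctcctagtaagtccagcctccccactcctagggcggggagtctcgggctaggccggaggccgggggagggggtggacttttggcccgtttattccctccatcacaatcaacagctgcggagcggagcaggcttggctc
F11r (chr1:171437311-171437560, plus strand): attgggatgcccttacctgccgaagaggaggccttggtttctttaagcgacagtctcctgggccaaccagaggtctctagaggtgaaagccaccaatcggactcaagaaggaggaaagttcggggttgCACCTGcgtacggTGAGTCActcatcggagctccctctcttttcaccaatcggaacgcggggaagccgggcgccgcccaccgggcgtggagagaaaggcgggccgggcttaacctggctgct
Epcam (chr17:87635729-87635978, plus strand): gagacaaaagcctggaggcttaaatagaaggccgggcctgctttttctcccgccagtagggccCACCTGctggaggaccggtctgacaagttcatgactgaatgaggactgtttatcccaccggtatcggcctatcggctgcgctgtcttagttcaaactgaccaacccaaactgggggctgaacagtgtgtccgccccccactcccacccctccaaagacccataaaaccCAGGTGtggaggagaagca
Cldn4 held 1 CAGGTG and 2 TGANTCA, F11r held 1 of each, Epcam held 2 CAGGTG, Cldn15 held 1 TGANTCA and Cldn1 held neither. The starts are those of RefSeq and can differ from the deposited gene coordinates. There Cldn15 starts at 136966616 on chromosome 5, so its stretch lies inside the gene.

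The levels in untreated Tmem173fl/fl colon spanned a wide range. Epcam, a claudin-binding adhesion molecule, ranked first at 827.5 ± 47.1 (SD, n = 3). Cdh1 followed, and Cldn7, a claudin that Epcam binds, came next. Cldn7 and Cldn3 together dominated the claudins, with 43.1% ± 2.90 and 30.6% ± 3.32 of the summed claudin level (SD, n = 3), and Cldn8, Cldn15, Cldn2 and Cldn23 each held between 4.10% and 6.51% on average. Cldn1 and Cldn10 were at the foot of the order, at 0.0243% and 0.0192% of the claudin sum, and Cldn18, a claudin of stomach and lung, had 0 counts in all 12 libraries. Some of the genes lie near each other: Cldn4 and Cldn3 are 39.3 kb apart on chromosome 5 and Ocln and Marveld2 43.2 kb apart on chromosome 13.

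The first comparison set colitic against untreated Tmem173fl/fl mice, whose STING was not deleted. Of the 32 junction genes, 15 fell and 6 rose (edgeR, Benjamini-Hochberg adjusted p under 0.05), that is 21 of 32 against 35.4% of all genes tested, of which 19.5% were higher and 16.0% lower. Their median log2 fold change was -0.48 against 0.03 over all genes, and 26 of 32 had a log2 fold change below 0, as did 48.6% of all genes. Changes that passed and were at least 2-fold were seen for 8 that fell and 4 that rose, against 7.61% and 14.9% of all genes, or 22.5% in all. In 25 of 32 the groups of libraries did not overlap, against 49.3% of all genes. The losses included the major adhesion genes Cdh1 and Epcam, the tight junction proteins Ocln, F11r, Marveld2 and Marveld3 and 5 claudins, while Cldn1, Cldn10, Cldn4, Jam3, Cgnl1 and Ppl rose. The heat map of all junction genes shows this split beside the other groups.

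**Figure D1:**
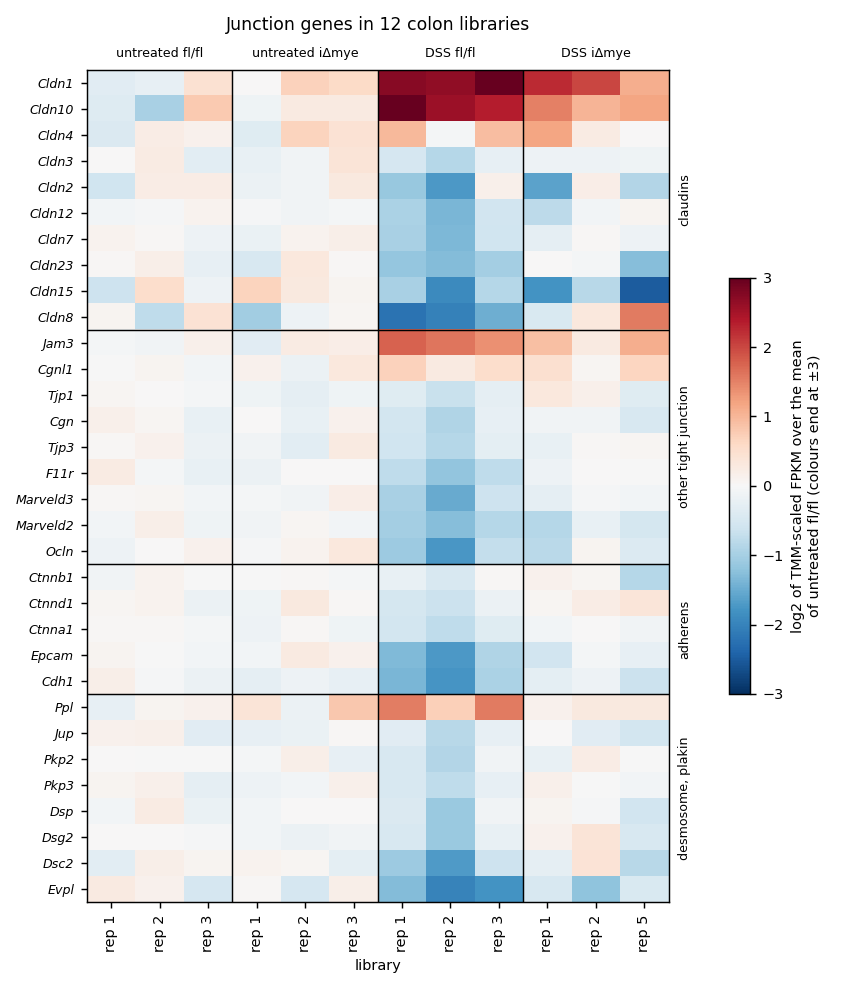
Heat map of 32 junction genes (rows, by class) in 12 colon libraries (columns), coloured by log2 of TMM-scaled FPKM over the mean of the 3 untreated Tmem173fl/fl libraries, with colours ending at 3 in both directions. In the 3 colitic Tmem173fl/fl libraries most rows are blue and Cldn1, Cldn10, Jam3 and Ppl are red; scaled on epithelial reference genes, 24 of the 32 would lie above 0 in this comparison.

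The epithelial reference list moved with this comparison. It summed to between 5874 and 7473 in untreated and 2409 and 4140 in colitic Tmem173fl/fl colon, with 15 of its 17 genes lower and a median log2 fold change of -0.98. At the same time neutrophil genes summed to between 45.9 and 108.6 without DSS and 565 and 930.4 with it, fibroblast genes to between 190.6 and 222.8 and between 1160 and 1435, and endothelial genes to between 17.5 and 19.6 and between 75.2 and 104.2, with 8 of 8 genes of each list higher. When libraries were scaled so that the epithelial reference genes had the same mean log2 level, which moved the median of all genes to 1.06, the split of the junction genes turned to 10 higher and 1 lower of 32, with 51.4% of all genes called. Values under this scaling are called levels relative to epithelial genes below. Hoxb13, a gene that marks the posterior gut, lay between 63.15 and 114.2 in untreated and 0.278 and 2.23 in colitic Tmem173fl/fl libraries. Whether the stretch of colon sampled had a part in the changes of the junction genes was not tested.

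Among the claudins, 5 fell, 3 rose and 2 did not pass, against 35.4% of all genes called, with a median log2 fold change of -0.74 over 10 tested. On epithelial reference scaling, 3 were higher and 1 lower, against 51.4% of all genes called, and the median was 0.19.

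Cldn8, a sealing claudin of the colon, was at 55.6, 31.3 and 71.4 in untreated and 11.3, 13.0 and 19.1 in colitic Tmem173fl/fl libraries. The groups did not overlap, and Cldn8 fell by 1.803 on the log2 scale (SE 0.30, edgeR adjusted p = 0.00111), 3.49-fold. It was also the only junction gene lower under epithelial reference scaling, by -0.83 (edgeR adjusted p = 0.0216).

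Cldn23, a less studied claudin of differentiated colonocytes, fell by 1.09 (SE 0.15, edgeR adjusted p = 0.000312), and its untreated libraries did not overlap with the colitic ones, against -0.057 relative to epithelial genes (edgeR adjusted p = 0.891). Cldn15, the channel claudin, was at 30.4, 67.5 and 41.9 without DSS and 23.6, 12.4 and 25.9 with it. The libraries of both groups lay apart, and Cldn15 fell by 1.11 (SE 0.32, edgeR adjusted p = 0.0207), but the adjusted p was 0.0827 without replicate 2 and 0.0505 without replicate 3 of the untreated group. Relative to epithelial genes Cldn15 lay at -0.15 (edgeR adjusted p = 0.702).

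Cldn7, the most abundant claudin, was at 383.2, 367.4 and 323.7 without DSS and 183.5, 141.7 and 237.1 with it. It fell by 0.86 (SE 0.19, edgeR adjusted p = 0.00623) without overlap of the groups, and lay at 0.12 (edgeR adjusted p = 0.706) relative to epithelial genes. Cldn12, whose log2 fold change was also -0.86 (edgeR adjusted p = 0.00561), lay at 0.10 on that scale.

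Cldn1, a sealing claudin that is scarce in untreated colon, was at 0.157, 0.168 and 0.272 without DSS and 1.32, 1.26 and 1.74 with it. The groups were well apart, and Cldn1 rose by 2.90 (SE 0.32, edgeR adjusted p = 0.0001005), 7.48-fold, yet its share of the claudin sum reached only 0.296% ± 0.0411 (SD, n = 3) in colitic libraries.

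Cldn10, an ion channel claudin, rose by 2.72 (SE 0.49, edgeR adjusted p = 0.00185) from equally low levels, with at most 62 counts in any library. Cldn4, a sealing claudin, was at 19.3, 30.3 and 28.2 without DSS and 51.1, 25.0 and 49.3 with it, so that the groups overlapped through replicate 2. It rose by 0.76 (SE 0.27, edgeR adjusted p = 0.0494), a call that was lost when any 1 library other than replicate 2 of the colitic group was left out (edgeR adjusted p up to 0.18), and was higher by 1.71 relative to epithelial genes (edgeR adjusted p = 3.74e-06). For each Cldn4 transcript level there were 11.5 to 19.9 times as much Cldn7 in untreated Tmem173fl/fl libraries and 3.59 to 5.67 times as much in colitic ones.

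The channel claudin Cldn2 did not pass, at 25.4, 44.8 and 44.2 without DSS and 17.2, 11.6 and 42.1 with it (log2 fold change -0.62, SE 0.41, edgeR adjusted p = 0.274). Its colitic libraries spread widely, and without replicate 3 of the colitic group the value was -1.35 (edgeR adjusted p = 0.00273). Cldn3, next to Cldn7 in level, stood at -0.44 (edgeR adjusted p = 0.112).

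**Figure D2:**
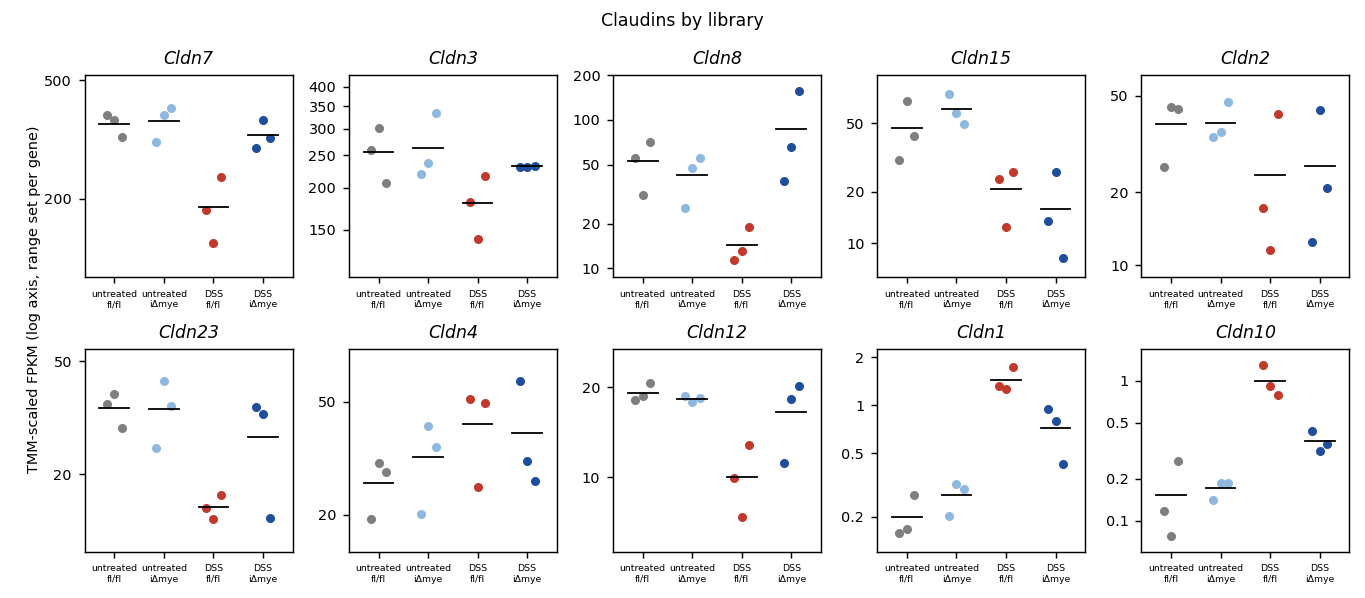
Level of 10 claudins in each library, as TMM-scaled FPKM on a log axis whose range is set per gene; points are libraries and lines group means of 3 libraries. All 6 colitic libraries sit above all 6 untreated ones for Cldn1 and Cldn10, and the 3 colitic Tmem173fl/fl libraries sit lowest for Cldn8, from 11.3 to 19.1.

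Among the 9 other tight junction genes, 5 fell, 2 rose and 2 did not pass in colitic Tmem173fl/fl mice, against 35.4% of all genes called. Epithelial reference scaling gave 3 higher and none lower, where 51.4% of all genes were called. Ocln, which encodes occludin, a strand protein with 4 membrane-spanning segments, was at 18.7, 21.0 and 22.6 without DSS and 9.79, 6.18 and 12.7 with it. Untreated and colitic libraries lay apart, and Ocln fell by 1.06 (SE 0.23, edgeR adjusted p = 0.00496), against -0.11 relative to epithelial genes (edgeR adjusted p = 0.775).

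Its relatives Marveld2, the tricellulin of cell corners, and Marveld3 fell by 0.98 and 0.92 (edgeR adjusted p = 0.00083 and 0.00534) and lay at 0.04 and 0.05 on epithelial reference scaling. F11r, the junctional adhesion molecule A, was at 100.7, 82.1 and 73.1 without DSS and 50.2, 37.5 and 50.6 with it. It fell by 0.82 (SE 0.17, edgeR adjusted p = 0.00475), without overlap, and lay at 0.19 on epithelial reference scaling.

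Among the scaffolds, Tjp3 (ZO-3) fell by 0.49 (edgeR adjusted p = 0.0457), a call lost without any of 4 libraries (replicates 1 and 2 of the untreated and replicates 1 and 2 of the colitic group, edgeR adjusted p from 0.1 to 0.131), and lay at 0.51 relative to epithelial genes. Tjp1 (ZO-1) stood at -0.35 (edgeR adjusted p = 0.0948), against 0.66 on epithelial reference scaling (edgeR adjusted p = 0.0374), and Cgn, the scaffold cingulin, -0.47 (edgeR adjusted p = 0.0706).

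Jam3, a junctional adhesion molecule that is also made by endothelial and other cells, rose from 1.59, 1.54 and 1.86 to 5.64, 5.07 and 4.32. The groups were well apart, and the rise was 1.66 (SE 0.20, edgeR adjusted p = 0.000176). Cgnl1, the cingulin relative paracingulin, rose by 0.58 (SE 0.14, edgeR adjusted p = 0.00846), with an adjusted p of 0.0688 without replicate 1 of the colitic group. Endothelial and fibroblast genes rose in the same libraries, and their part in the rises of Jam3 and Cgnl1 was not tested.

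Of the 5 adherens genes, 3 fell and none rose, against 35.4% of all genes called. Epithelial reference scaling gave 2 higher and none lower, where 51.4% of all genes were called. Cdh1 was at 443.4, 383.3 and 350 without DSS and 150.5, 114.9 and 202.4 with it. There was no overlap, and Cdh1 fell by 1.26 (SE 0.21, edgeR adjusted p = 0.00124), 2.40-fold, against -0.28 relative to epithelial genes (edgeR adjusted p = 0.304).

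Epcam was at 879.4, 815.7 and 787.5 without DSS and 331, 250.1 and 444.3 with it, again without overlap. It fell by 1.21 (SE 0.21, edgeR adjusted p = 0.00137), against -0.23 relative to epithelial genes. Of the catenins, Ctnna1 (alpha-catenin, the link to actin) fell by 0.48 (edgeR adjusted p = 0.0338), a call kept only without replicate 3 of the colitic group when 1 library was left out (edgeR adjusted p from 0.0594 to 0.0933 without each of the other 5), and lay at 0.54 on epithelial reference scaling.

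Ctnnb1 (beta-catenin, which also serves Wnt signalling) was at 143.4, 164.9 and 151.9 without DSS and 131.4, 110.6 and 157.2 with it, and the groups overlapped. Its log2 fold change was -0.14 (edgeR adjusted p = 0.563), against 0.86 on epithelial reference scaling (edgeR adjusted p = 0.00258). The catenin Ctnnd1 (p120) had -0.36 and did not pass (edgeR adjusted p = 0.0921). As a ratio of levels, Ctnnb1 stood at 0.324 to 0.434 of Cdh1 in untreated and 0.777 to 0.962 in colitic Tmem173fl/fl libraries. In Tmem173iΔmye libraries it stood at 0.441 to 0.467 without DSS and 0.336 to 0.523 with it, lowest in replicate 5. No library scaling changes this ratio, but the mix of cells in a library can. Fibroblast and endothelial genes rose in the colitic Tmem173fl/fl libraries, and their part in the ratio was not tested.

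Of the 8 desmosome and plakin genes, 2 fell, 1 rose and 5 did not pass, which is close to the 35.4% of all genes called. Epithelial reference scaling gave 2 higher and none lower, where 51.4% of all genes were called. Evpl (envoplakin, a plakin of the cornified envelope) was at 19.9, 18.1 and 11.8 without DSS and 6.69, 4.13 and 4.82 with it. The groups did not overlap, and Evpl fell by 1.60 (SE 0.23, edgeR adjusted p = 0.00044), 3.03-fold, against -0.56 relative to epithelial genes (edgeR adjusted p = 0.103). Dsc2, the desmosomal cadherin desmocollin 2, fell by 1.01 (SE 0.25, edgeR adjusted p = 0.0108), against -0.062 on that scale (edgeR adjusted p = 0.863).

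Ppl (periplakin, the partner of envoplakin) went the other way, from 1.18, 1.46 and 1.53 to 3.99, 2.28 and 4.08. The groups did not overlap, and Ppl rose by 1.38 (SE 0.24, edgeR adjusted p = 0.00168), 2.60-fold. The other desmosome genes, which are the cadherin Dsg2, the keratin anchor Dsp, plakoglobin (Jup) and the plakophilins Pkp2 and Pkp3, had log2 fold changes from -0.49 to -0.38 with edgeR adjusted p from 0.0825 to 0.2145, and from 0.47 to 0.63 on epithelial reference scaling. Without replicate 3 of the colitic group, Dsg2, Dsp, Pkp2 and Pkp3 passed as lower (edgeR adjusted p from 0.0124 to 0.0457), as did Cldn2, Cldn3, Cgn and Ctnnd1, and 28 junction genes passed in all. The share of all genes that passed without this replicate is not given here, so the larger count cannot be read as particular to junction genes.

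**Figure D3:**
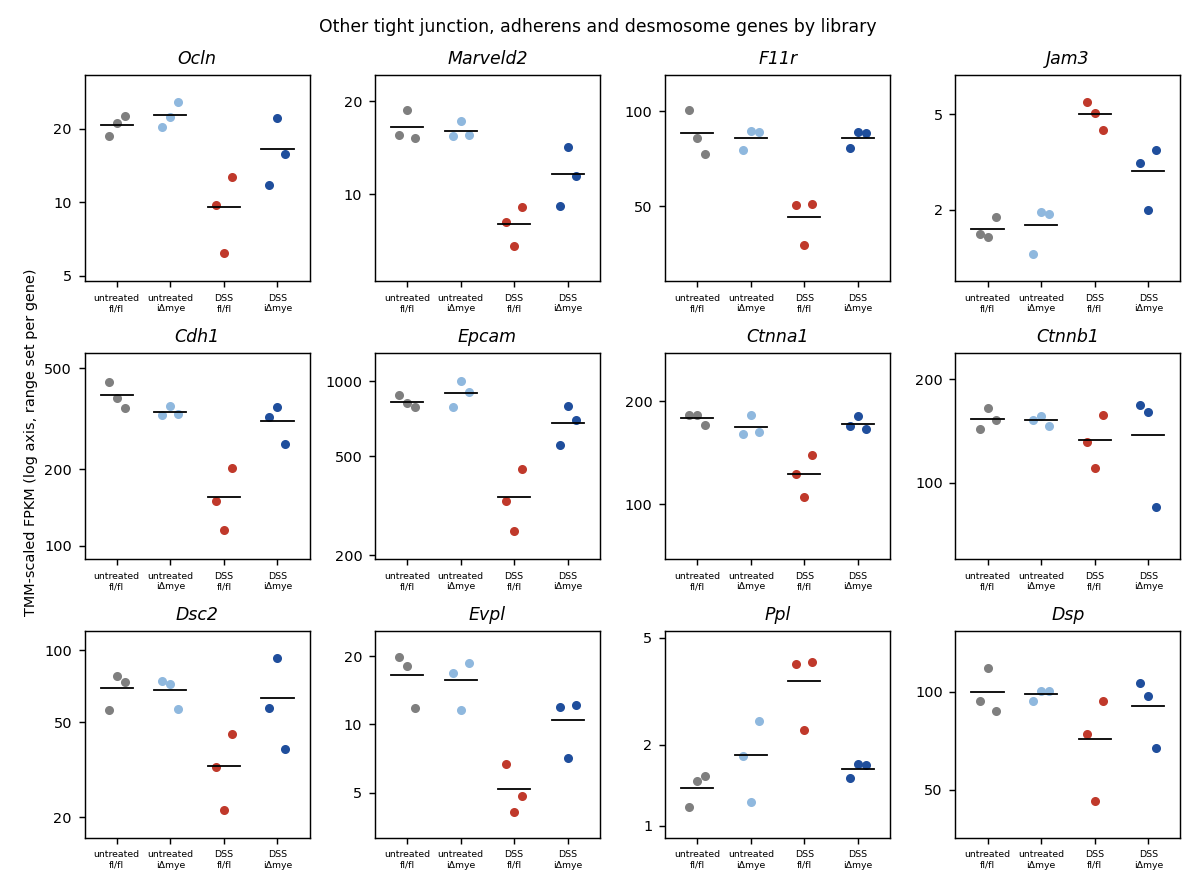
Level of 12 other junction genes in each library, as TMM-scaled FPKM on a log axis whose range is set per gene; points are libraries and lines group means of 3 libraries. Colitic Tmem173fl/fl libraries lie lowest for Cdh1 (114.9 to 202.4), Epcam and F11r and highest for Jam3, and for Ppl they lie above the untreated Tmem173fl/fl ones; relative to epithelial genes, F11r and Ctnna1 turn to 0.19 and 0.54 on the log2 scale.

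In the plot of both scalings, all junction genes are shifted by nearly the same amount, which follows from the change of scaling and is not a result about these genes. Members that were lower on the common scale but followed the epithelial reference genes, such as Cdh1, Ocln and Cldn7, lie near 0 on the vertical axis, and the 10 that were higher relative to epithelial genes were Cldn1, Cldn10, Cldn4, Jam3, Cgnl1, Ppl, Ctnnb1, Tjp1, Ctnnd1 and Jup. The part of cells other than epithelium in the values of these 10 was not tested.

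**Figure D4:**
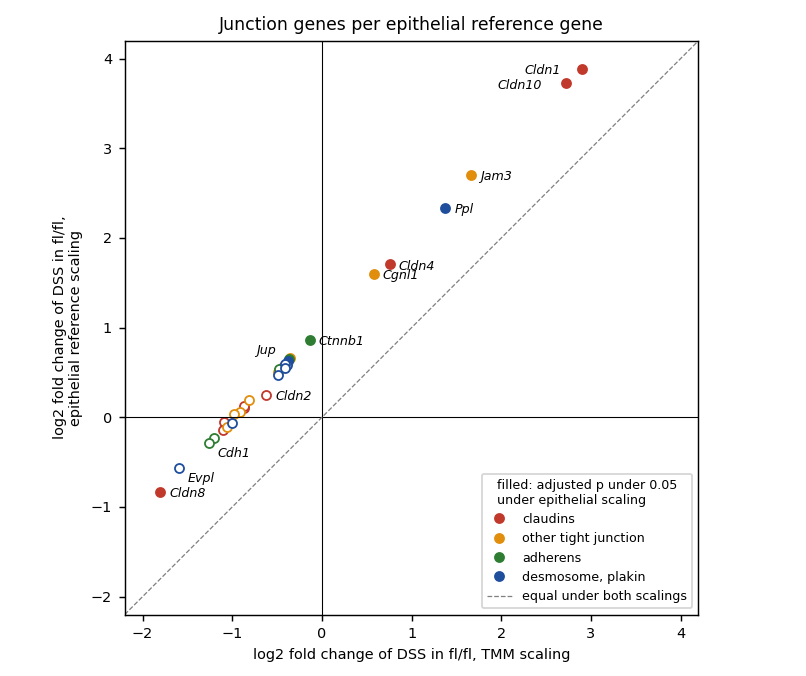
Log2 fold change of DSS in Tmem173fl/fl mice for 32 junction genes, with TMM scaling on the horizontal axis and with libraries scaled on 17 epithelial reference genes on the vertical axis; filled points pass an edgeR adjusted p of 0.05 on the vertical scale. The change of scaling itself puts all points above the line of equality. On the vertical axis 24 lie above 0, and of the genes below 0 there Cldn8 passes, at -0.83.

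The response to DSS in Tmem173iΔmye mice was smaller in number. Cldn15 fell and no other junction gene passed, that is 1 of 32 against 2.17% of all genes tested, of which 0.639% were lower (edgeR, Benjamini-Hochberg adjusted p under 0.05). The median was -0.13 against 0.02 over all genes, 20 of 32 lay below 0 against 48.1% of all genes, 5 junction genes had an unadjusted p under 0.05 against 15.6% of all genes, and in 5 the groups did not overlap, against 21.5%. On epithelial reference scaling the split turned round, with 26 of 32 above 0 and 6 below and a median of 0.28 against 0.42 over all genes, and Cldn1 passed as higher beside Cldn15 as lower, with 5.18% of all genes called. Epithelial reference genes summed to between 6388 and 7724 without and 4753 and 6352 with DSS in this genotype, and 0 of 17 passed, against 6 at an unadjusted p under 0.05.

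Cldn15 was at 73.7, 56.9 and 49.5 in untreated and 13.5, 26.0 and 8.26 in colitic Tmem173iΔmye libraries. The groups did not overlap, and Cldn15 fell by 1.92 (SE 0.37, edgeR adjusted p = 0.0268), 3.77-fold, and by 1.55 relative to epithelial genes (edgeR adjusted p = 0.0251). The call was lost without any 1 untreated library (edgeR adjusted p from 0.121 to 0.163) and without replicate 1 of the colitic group (0.0968). With it Cldn15 was the sole junction gene to pass as lower with DSS in both genotypes, in libraries that the 2 comparisons do not share, and a difference between its 2 falls was not shown (interaction -0.74, SE 0.55, edgeR adjusted p = 0.518).

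Cldn1 was at 0.201, 0.322 and 0.298 without DSS and 0.942, 0.797 and 0.426 with it in Tmem173iΔmye mice, without overlap of the groups. Its log2 fold change of 1.39 (SE 0.43) did not pass (edgeR adjusted p = 0.149), but without replicate 5 of the colitic group it was 1.69 (edgeR adjusted p = 0.029). Jam3 had 0.74 and Cldn10 1.09 (edgeR adjusted p = 0.313 and 0.354). Cldn8 had 1.01 (SE 0.46, edgeR adjusted p = 0.3215) with overlapping groups, and as little as 0.30 with 1 library left out. Cdh1 had -0.13, with an approximate 95% interval from -0.52 to 0.26 (0.28 relative to epithelial genes), and Epcam -0.40 (edgeR adjusted p = 0.808 and 0.406).

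**Figure D5:**
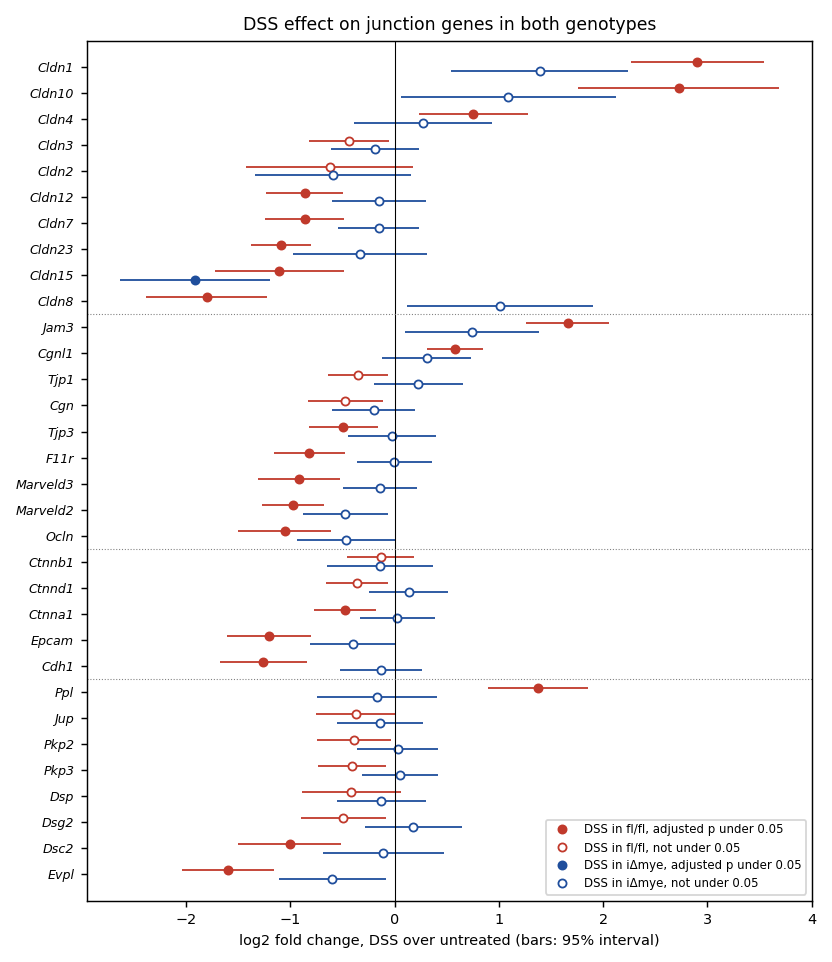
Log2 fold change of DSS over untreated for 32 junction genes in Tmem173fl/fl (red) and Tmem173iΔmye mice (blue) with TMM scaling, 3 libraries a group. Bars are approximate 95% intervals, narrower than the F test allows, so a bar clear of 0 is not a call. Filled points pass an edgeR adjusted p of 0.05. Red points fill in 21 genes and blue in Cldn15, and the points of Cldn8 lie on opposite sides of 0, at -1.803 and 1.01, as they do relative to epithelial genes at -0.83 and 1.41. The Cldn8 value in Tmem173iΔmye mice passed under neither scaling (edgeR adjusted p = 0.3215 with TMM), and its groups overlapped.

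Without DSS, the genotypes differed in 0 of 32 junction genes by edgeR, as in 0% of all genes, and 0 junction genes had an unadjusted p under 0.05 against 2.99% of all genes. The count was also 0 by DESeq2 and by limma. In 2 of 32 (Tjp1 and Dsg2) the groups did not overlap, against 7.35% of all genes. Log2 fold changes of Tmem173iΔmye over Tmem173fl/fl ran from -0.30 for Cldn8 to 0.46 for Cldn1. The approximate 95% interval of Cdh1 ran from -0.48 to 0.06 and that of Cldn8 from -0.87 to 0.28.

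With DSS, the comparison of genotypes set colitic Tmem173iΔmye against colitic Tmem173fl/fl mice. These differ in carrying Cre as well as in the intended loss of myeloid STING, and the design cannot tell the 2 apart. Cldn8 was higher in Tmem173iΔmye mice and no other junction gene passed, that is 1 of 32 against 3.11% of all genes, of which 0.954% were higher and 2.15% lower (edgeR, Benjamini-Hochberg adjusted p under 0.05). This comparison and that of DSS in Tmem173fl/fl mice use the same colitic Tmem173fl/fl libraries. In it, 25 of 32 junction genes lay above 0 and 7 below, where 48.3% of all genes lay below, with a median of 0.49 against 0.02 over all genes, 20 had an unadjusted p under 0.05 against 20.2%, and the groups did not overlap in 17 against 26.8%. On epithelial reference scaling, which moved the median of all genes to -0.66, 21 of 32 lay below 0 instead, and the calls became 1 higher (Cldn8) and 4 lower (Cldn1, Cldn10, Jam3 and Ppl), with 12.2% of all genes called.

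Markers of other cells differed between the colitic groups too. Of 8 markers each, 5 neutrophil and 5 fibroblast markers were lower in Tmem173iΔmye mice, with medians of -2.74 and -1.38, and the neutrophil markers summed to between 236.4 and 326.6 against 565 and 930.4. Of 10 colonocyte markers 4 were higher, with a median of 1.04, and of the 17 epithelial reference genes 16 lay above 0 and 1 passed, with a median of 0.76. Their part in the shift of the junction genes was not tested.

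Cldn8 was at 38.6, 65.5 and 155 in colitic Tmem173iΔmye libraries (replicates 1, 2 and 5) against 11.3, 13.0 and 19.1 in colitic Tmem173fl/fl ones. The groups did not overlap, replicate 5 stood highest, and Cldn8 was higher by 2.57 (SE 0.48, edgeR adjusted p = 0.0317), 5.94-fold, and by 1.90 relative to epithelial genes (edgeR adjusted p = 0.00482). Without replicate 5, Cldn8 was higher by 1.83 (edgeR adjusted p = 0.0252). The call was lost without any 1 of the colitic Tmem173fl/fl libraries (edgeR adjusted p from 0.0668 to 0.143) or without replicate 2 of the colitic Tmem173iΔmye group (0.0812).

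Its share of the claudin sum was 10.97% ± 7.38 in colitic Tmem173iΔmye and 2.96% ± 0.636 in colitic Tmem173fl/fl colon (SD, n = 3 each), against 6.505% ± 2.93 and 4.89% ± 1.203 in untreated Tmem173fl/fl and Tmem173iΔmye colon. In replicate 5 alone it reached 19.4%. Each unit of Cldn7 was matched by 0.0618 to 0.0921 units of Cldn8 in colitic Tmem173fl/fl libraries and by 0.13, 0.178 and 0.482 in the colitic Tmem173iΔmye ones.

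Hox genes, which mark the position along the gut, moved in the same libraries. The posterior gene Hoxb13 was at 114.2, 63.15 and 86.3 in untreated and 2.23, 0.322 and 0.278 in colitic Tmem173fl/fl libraries, and at 13.0, 9.56 and 88.7 in colitic Tmem173iΔmye ones, where replicate 5 was again highest. Hoxd13, another posterior gene, was at 73.9 in that replicate and at most 35.45 in any other library. Whether the stretch of colon sampled had a part in the levels of Cldn8 was not tested, and replicate 5 also differs from the others of its group in its female Xist pattern.

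The remaining values did not pass. Epcam and Cdh1 had log2 fold changes of 0.99 and 0.98 (edgeR adjusted p = 0.0875 and 0.0881), against 0.35 for both relative to epithelial genes, and F11r 0.83 (edgeR adjusted p = 0.0519), against 0.17. In none of the 3 did the groups overlap. On epithelial reference scaling Cdh1 stood at 222.6% to 317.1% of the reference level in colitic Tmem173iΔmye and 198.8% to 222.1% in colitic Tmem173fl/fl libraries. Ppl was at 1.51, 1.70 and 1.69 against 3.99, 2.28 and 4.08 (log2 fold change -1.09, edgeR adjusted p = 0.0662), and Cldn10 had -1.45 (edgeR adjusted p = 0.0841). DESeq2 passed 10 junction genes in this comparison, 8 higher and 2 lower, against 9.87% of all genes, and limma passed 0.

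The difference between the genotypes in their response to DSS was tested as an interaction over all 12 libraries. Of the 32 junction genes, 2 passed with a higher response in Tmem173iΔmye mice, Cldn8 and Cdh1, against 2.65% of all genes, of which 0.987% were higher and 1.66% lower, and 19 had an unadjusted p under 0.05 against 18.1% of all genes. Cldn8 had 2.88 (SE 0.64, edgeR adjusted p = 0.0318), which held on epithelial reference scaling (2.24, edgeR adjusted p = 0.0347, with 6.62% of all genes called), and with the Xist pattern as a covariate it was 2.36 (edgeR adjusted p = 0.0231). Cdh1 was at 327.1, 354.8 and 330.1 in untreated and 321.8, 352.2 and 252.7 in colitic Tmem173iΔmye libraries. Its interaction was 1.204 (SE 0.29, edgeR adjusted p = 0.0468) and became 0.56 on epithelial reference scaling (edgeR adjusted p = 0.218).

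Ppl stood next, with an interaction of -1.48 (SE 0.39, edgeR adjusted p = 0.0598), and then F11r with 0.89 (edgeR adjusted p = 0.0676). On epithelial reference scaling, where 20 of 32 lay below 0 and 12 above, Ppl and Cldn1 passed with a lower response in Tmem173iΔmye mice, at -2.09 and -2.08 (edgeR adjusted p = 0.00873 and 0.0497). With single libraries left out, Cldn8 lost the call in 7 and Cdh1 in 9 of 12 settings, with edgeR adjusted p up to 0.0949 and 0.133. These were, for Cldn8, each library of the untreated groups except replicate 2 of Tmem173fl/fl, and replicates 1 and 2 of colitic Tmem173fl/fl. For Cdh1 they were every untreated library, replicates 1 and 2 of colitic Tmem173fl/fl and replicate 2 of colitic Tmem173iΔmye.

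Other junction genes of the same pathways were followed with lists that do not include the genes above. In colitic Tmem173fl/fl mice, 8 of 24 further tight junction genes rose and 8 fell, against 19.5% and 16.0% of all genes. The falls by size were Lsr (the angulin of tricellular junctions, -2.11), Cxadr (the coxsackie and adenovirus receptor, -1.29) and Prkci (a polarity kinase, -1.07), with edgeR adjusted p from 0.000174 to 0.000605. The rises by size were Esam (an endothelial adhesion molecule, 2.40), Clmp (an adhesion molecule related to Cxadr, 1.85) and Mpdz (a scaffold, 1.58), with edgeR adjusted p of at most 0.000286.

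Among 20 further adherens genes, 6 rose and 5 fell, against 19.5% and 16.0% of all genes. The rises by size were Cdh5 (VE-cadherin of endothelium, 2.84), Cdh11 (a mesenchymal cadherin, 1.98) and Cdh2 (N-cadherin, 1.68). Nectin3 (-1.36), Plekha7 (-1.05) and Camsap3 (-0.91) fell. Of 6 further claudins tested, Cldn5, the claudin of endothelium, rose by 2.44 (edgeR adjusted p = 0.00175), to 17.4, 17.2 and 5.19 from 1.77, 2.77 and 3.14. The 8 rises of endothelial markers in the same libraries stand beside these values, and their part was not tested.

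Of 4 further desmosome genes tested, Pkp1 (plakophilin 1) fell by 1.88 and Perp by 1.05, and Dsc3 rose by 3.17. Among 8 hemidesmosome genes, which fix cells to the basement membrane, Lama3 rose by 1.22 and Dst by 1.01, Col17a1 rose by 2.47 from near 0 and Itga6 fell by 0.76. Relative to epithelial genes the rises named here remained higher, and of the falls Lsr and Pkp1 remained called, at -1.16 and -0.96 (edgeR adjusted p = 0.00317 and 0.0206), while Camsap3 and Itga6 turned to 0.09 and 0.22.

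Between the colitic groups, 5 of the 24 further tight junction genes passed, against 3.11% of all genes. Clmp, Esam and Amotl1 (an angiomotin relative) were lower in Tmem173iΔmye mice by -1.04, -1.17 and -1.04, as was Jam2 by -0.99, and Igsf5, an epithelial adhesion molecule with another entry of the same name near 0, was higher by 1.36 (edgeR adjusted p = 0.0227) and lay at 0.70 relative to epithelial genes (edgeR adjusted p = 0.202). Cdh5 was lower by -1.48 (edgeR adjusted p = 0.0317), with 3 of 8 endothelial markers lower, itself among them. None of the further claudin, desmosome or hemidesmosome genes passed in this comparison.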

How the data were processed

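Counts of 12 libraries of polyA RNA of mouse colon, 3 per group, were used. The authors deposited whole-number counts per gene and FPKM values with gene lengths and GRCm38 coordinates. The submitters' processing notes name CASAVA 1.8, fastp, HISAT2 2.0.5 and featureCounts 1.5.0-p3, and use of strand was not given in the sources used here, so overlapping genes cannot be told apart. Deposited columns of DESeq2 comparisons (group means, fold changes and p-values) were not used.

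Genes that reached an FPKM of 0.1 in 3 or more libraries were tested with edgeR 4.0.16 (quasi-likelihood, TMM, R 4.3.3) in 5 comparisons, pairs of groups and the interaction, with Benjamini-Hochberg adjustment over 24102 genes. A gene passed at an adjusted p under 0.05, and counts at 2-fold are given beside. The standard error was the log2 fold change divided by the square root of F. The 95% intervals took the normal multiple of this standard error, so they are approximate and narrower than the F test allows with few libraries. An interval can leave out 0 where p is above 0.05, as for Pkp2 with DSS in Tmem173fl/fl mice (-0.75 to -0.03, edgeR unadjusted p = 0.0585). Levels were counts divided by gene length and by the TMM-scaled library total.

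The junction genes and lists were chosen with earlier results of these data known. All junction genes are named. From each further list up to 3 rises and 3 falls of the largest log2 change with a mean FPKM of at least 1 are named. From these, 1 gene is not reported here. The Hox genes, Jam2, Dsc3 and Col17a1 were named after their values were seen. Alternatives were DESeq2 1.42.0, limma 3.58.1 on log2(FPKM + 0.1) and log2(FPKM + 1), other scalings, filters and thresholds, 1 fit of all groups, blocking on replicate number and leaving out single libraries. A sex covariate was planned and used for the interaction alone, so the pairs of groups were not adjusted for sex. The tests were checked on simulated counts with few changed genes, where in the pairs of groups more of the calls were false than the threshold allows and most 2-fold changes were missed, so calls near the threshold and genes that did not pass should both be read with care. The sources used here do not say whether each library came from 1 mouse. Each p-value sets a difference against the spread between libraries, those of the pair of groups compared or, for the interaction, all 12.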

Additional observations from a re-analysis of the deposited data

Results flagged for a closer look

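In groups of 3 libraries no single library was tested as standing apart. The response to DSS differed between the genotypes by the edgeR interaction test for 2 of the junction genes, Cldn8 (2.88, adjusted p = 0.0318) and Cdh1 (1.204, adjusted p = 0.0468), both with a more positive response in Tmem173iΔmye mice. Among the related genes named by size, Igsf5 differed in that direction (1.38, adjusted p = 0.026). The opposite direction was found for Cdh5 (-1.70, adjusted p = 0.0186), Esam (-1.30, adjusted p = 0.032), Clmp (-1.13, adjusted p = 0.0134) and Amotl1 (-1.11, adjusted p = 0.0426). Of these, Cdh5 and Esam are endothelial genes, and 3 of 8 endothelial markers, Cdh5 among them, passed the same test in the same direction, a relation that was not tested further.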

How the results depend on the processing

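Of 2752 values of single junction genes under other settings, 2590 kept their side of the threshold, 88 lost and 63 gained a call, and 11 changed sign across a call, all under epithelial reference scaling in DSS of Tmem173fl/fl mice: Ctnnb1 (0.86), Tjp1 (0.66), Ctnnd1 (0.65), Jup (0.63), Ctnna1 (0.54), Tjp3 (0.51), F11r (0.19), Cldn7 (0.12), Cldn12 (0.10), Marveld3 (0.054) and Marveld2 (0.038). A further 158 values that passed under neither setting changed sign. For DSS in Tmem173fl/fl mice the count of 21 became 12 with a 2-fold threshold, on adjusted or unadjusted p, 11 on epithelial reference scaling and 17 to 28 with 1 library left out. For DSS in Tmem173iΔmye mice the count of 1 became 2 with an unadjusted p and 2-fold, on epithelial reference scaling and in 1 fit of all groups, 0 by limma at both pseudocounts, and 0 to 2 with 1 library left out. Without DSS the count was 0 under every setting run. With DSS the genotype count of 1 became 4 with an unadjusted p and 2-fold, 7 with no filter, 5 on epithelial reference scaling, 10 by DESeq2 and in 1 fit of all groups, 0 by limma at both pseudocounts, and 0 to 2 with 1 library left out. The interaction count of 2 became 6 with an unadjusted p and 2-fold, 1 with median-of-ratios size factors, 3 on epithelial reference scaling (1 higher, 2 lower), 4 by DESeq2, 0 by limma at both pseudocounts and 0 to 4 with 1 library left out. The share of all genes called moves with the setting too. For DSS in Tmem173fl/fl mice it was 22.5% with adjusted p and 2-fold, and 51.4% on epithelial reference scaling. On that scaling it was 5.18% for DSS in Tmem173iΔmye mice, 12.2% for the genotypes with DSS and 6.62% for the interaction. By DESeq2 it was 9.87% for the genotypes with DSS. Shares under the other settings are not given here, so those counts cannot be read as particular to junction genes. Epithelial reference scaling sets the reference genes equal by construction. For the rest the cause was not tested. Every alternative planned was run.

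Libraries share replicate numbers across groups. Deviations of same-numbered libraries correlated from -0.0802 to 0.108, and those of differently numbered ones from -0.271 to 0.186. With so few same-numbered libraries, the check cannot decide whether the numbers pair the libraries. With a replicate block, 18 junction genes passed for DSS in Tmem173fl/fl, 1 for DSS in Tmem173iΔmye, 0 for the genotypes without DSS, 1 with DSS and 1 for the interaction. In DSS of Tmem173iΔmye, the genotype comparison with DSS and the interaction the block used numbers 1 and 2 alone. Shares of all genes called with the block are not given here. Groups of 3 libraries limit the precision, and Cldn10, with 226 counts over all libraries, is the least supported of the genes tested.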
